A study of Mus musculus with 3 samples.

Results

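Bone morphogenetic protein (BMP) genes were examined in single cells of mouse molars. The genes were Bmp1, Bmp2, Bmp3, Bmp4, Bmp5, Bmp6, Bmp7 and Bmp8a, chosen by name, and all 8 were among the 21446 genes that the 3 libraries shared by gene identifier. On GRCm38 the genes span chr14:70474558-70520234 (Bmp1, minus strand), chr2:133552159-133562885 (Bmp2, plus), chr5:98854415-98884396 (Bmp3, plus), chr14:46383520-46390669 (Bmp4, minus), chr9:75775364-75900310 (Bmp5, plus), chr13:38345107-38500302 (Bmp6, plus), chr2:172868012-172940321 (Bmp7, minus) and chr4:123312645-123343252 (Bmp8a, minus). The question was which cells of the Pthrp-mCherry+ population held transcripts of each gene, and at which ages.

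All libraries came from mice of the Pthrp-mCherry knock-in genotype, in which the locus of Pthlh (parathyroid hormone-related protein) drives a fluorescent reporter, and no animals without the allele were included. First and second mandibular molars (M1 and M2) were dissociated, mCherry+ cells pooled over mandibles were sorted by fluorescence, and 1 library of 3′ transcript ends was made at postnatal day 15 (P15), 1 at P25 and 1 at 8 weeks. Mice of both sexes on a C57BL/6 background were used, and neither the number of animals in a pool nor the sex of a library was given in the sources used here. With 1 library at each age, age, animals and library preparation cannot be told apart, and differences between ages were given no test.

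BMPs are secreted as dimers and signal through paired type I and type II serine/threonine kinase receptors to the transcription factors Smad1, Smad5 and Smad9. Bmp2, Bmp4, Bmp5, Bmp6, Bmp7 and Bmp8a encode such ligands, Bmp3 encodes a member of the same family known for opposing BMP signals in bone, and Bmp1 encodes a metalloproteinase that trims procollagens and cleaves the antagonist chordin. In teeth, BMPs are known for signals between epithelium and mesenchyme and for the differentiation of cells that mineralise their matrix.

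The stretches upstream of the start are shown for 3 genes with unlike patterns, described further on: Bmp8a, held by Ibsp and Ifitm5 cells, Bmp4, common outside the gates as well, and Bmp5, highest in Rgs5 cells. RefSeq (GRCm38.p6) promoters were matched for 4 of the 8 genes (Bmp4, Bmp5, Bmp6 and Bmp8a), and the 250 bases before the RefSeq start are printed 5′ to 3′ on the gene's strand, with capitals marking a GC box (GGGCGG, or CCGCCC on the other strand). The Bmp8a window lies at chr4:123343253-123343502 on the minus strand, the Bmp4 window at chr14:46390670-46390919 on the minus strand and the Bmp5 window at chr9:75775115-75775364 on the plus strand. All 3 lie outside the gene, directly before its annotated first base, except that the last base of the Bmp5 window is the first base of the gene in the GENCODE annotation.
Bmp8a: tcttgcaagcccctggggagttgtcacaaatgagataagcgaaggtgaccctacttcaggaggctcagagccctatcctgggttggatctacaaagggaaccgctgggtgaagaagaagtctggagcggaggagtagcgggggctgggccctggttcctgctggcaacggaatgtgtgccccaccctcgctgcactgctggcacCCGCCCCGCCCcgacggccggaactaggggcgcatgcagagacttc
Bmp4: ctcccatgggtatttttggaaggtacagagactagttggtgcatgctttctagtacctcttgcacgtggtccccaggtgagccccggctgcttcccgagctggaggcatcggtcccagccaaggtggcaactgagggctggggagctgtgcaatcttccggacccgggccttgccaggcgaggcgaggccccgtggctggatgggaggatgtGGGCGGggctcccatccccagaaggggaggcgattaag
Bmp5: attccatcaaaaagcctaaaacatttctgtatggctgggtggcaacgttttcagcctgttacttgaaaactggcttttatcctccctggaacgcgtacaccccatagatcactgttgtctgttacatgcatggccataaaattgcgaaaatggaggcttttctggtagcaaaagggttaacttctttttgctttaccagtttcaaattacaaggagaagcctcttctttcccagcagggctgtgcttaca
The Bmp8a window held 2 overlapping GC boxes, the Bmp4 window held 1, and the Bmp5 window held none. A GC box was found on either strand in 32.7% of the 32851 RefSeq promoters of that length. The RUNX core TGTGGT (other strand ACCACA), in 14.0% of promoters, and the E-box CATCTG of Hand factors (other strand CAGATG), in 14.4%, were not found in the windows of Bmp4, Bmp5, Bmp6 or Bmp8a. GC content was 62.0% for Bmp8a, 63.2% for Bmp4 and 42.8% for Bmp5, against a median of 52.4% over all promoters.

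Cells were placed in 8 gates by unique molecular identifiers (UMIs) of 7 genes, with fixed minima per cell. Ibsp (bone sialoprotein) needed 10 UMIs and was split into cells with no UMI of Hand2 and cells with at least 2. The other gates needed 3 UMIs of Ifitm5 (an osteoblast membrane protein), 2 of Hand2 (a transcription factor of the jaw mesenchyme) with Ibsp under its minimum, 10 of Rgs5 (a mural cell gene), 2 of Pappa2 (a protease that cleaves IGF-binding proteins), 10 of Krt14 (an epithelial keratin) or 2 of Ptprc (CD45 of blood cells). The Ifitm5 gate left Ibsp and Hand2 free. Over the libraries the gates held 2498 (Ibsp without Hand2), 1587 (Ibsp with Hand2), 1729 (Ifitm5), 601 (Hand2), 195 (Rgs5), 627 (Pappa2), 2214 (Krt14) and 1011 (Ptprc) of 27089 cells, and 53.3% to 62.9% of a library's cells passed no gate. Marker genes other than the gate genes were highest in their own gate in 18 of 18 values for Krt14, 15 of 15 for Ifitm5, 10 of 10 for Ptprc, 7 of 7 for Rgs5, 9 of 15 for Hand2, 11 of 21 for Ibsp (counting both Ibsp gates as the gate) and 4 of 6 for Pappa2, and each of these values was above the median of the other gates. The study names the markers of the Ibsp, Ifitm5, Hand2 and Krt14 gates for its own clusters, which include cells of these libraries. The counts are therefore no independent check of the gates.

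Library totals ran from 46234378 to 188157997 UMIs, median UMIs per cell from 8712.5 to 15834, and 13 to 26 cell barcodes were shared by a pair of libraries. The P25 file named another version of the counting software in its header and listed more genes than the other files (32293 against 22056). Whether it was counted against another annotation was not stated, and age P25 and these features of its file cannot be told apart. Gates with fewer than 20 cells in a library gave no value, which left Rgs5 cells at P15 alone (10 and 4 cells in the later libraries) and Pappa2 and Ptprc cells at P15 and P25. Levels are given as counts per 1000000 UMIs of the shared genes (CPM) in the summed cells of a gate, with exact Poisson intervals at 95% in parentheses, and these intervals cover counting error only.

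Transcripts of Bmp8a and Bmp3 lay mainly in mineralising cells, taken as the Ibsp gates with and without Hand2, the Ifitm5 gate and, for these shares alone, the Ibsp cells with 1 Hand2 UMI that no gate holds. The last class held at most 9.47% of the UMIs of Bmp3 and 4.02% of those of Bmp8a in a library. Mineralising is used as a name for these gates, and mineral formation was not measured. At P15, P25 and 8 weeks the summed markers of Ifitm5 cells, Bglap among them, held 292, 185 and 275 CPM in Ibsp cells with Hand2. Ibsp cells without Hand2 held 2379, 2121 and 5572 CPM of them. Outside the mineralising gates, Pappa2 cells held 517 and 283 CPM of them at P15 and P25. Hand2 cells held 77.4, 534 and 152 CPM at P15, P25 and 8 weeks. These markers thus did not set Ibsp cells with Hand2 above the Pappa2 and Hand2 gates throughout. Mineralising cells held 18.1%, 32.3% and 36.1% of all UMIs at P15, P25 and 8 weeks. They held 88.4%, 93.6% and 90.2% of the Bmp8a UMIs, 68.1%, 69.2% and 77.8% of the Bmp3 UMIs and 40.9%, 57.9% and 60.9% of the Bmp2 UMIs. At P15 more of the Bmp2 UMIs, 44.6%, lay in cells without a gate. For Bmp4 the shares were 29.0%, 49.8% and 57.8%, for Bmp7 29.9%, 47.2% and 51.5%, and for Bmp1 21.2%, 36.0% and 33.7%. Bmp5 and Bmp6 stood apart from this order at P15, with 9.43% and 12.0% of their UMIs in mineralising cells. Cells outside every gate held from 2.71% (Bmp8a at P25) to 75.7% (Bmp6 at P15) of a gene's UMIs.

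**Figure D1:**
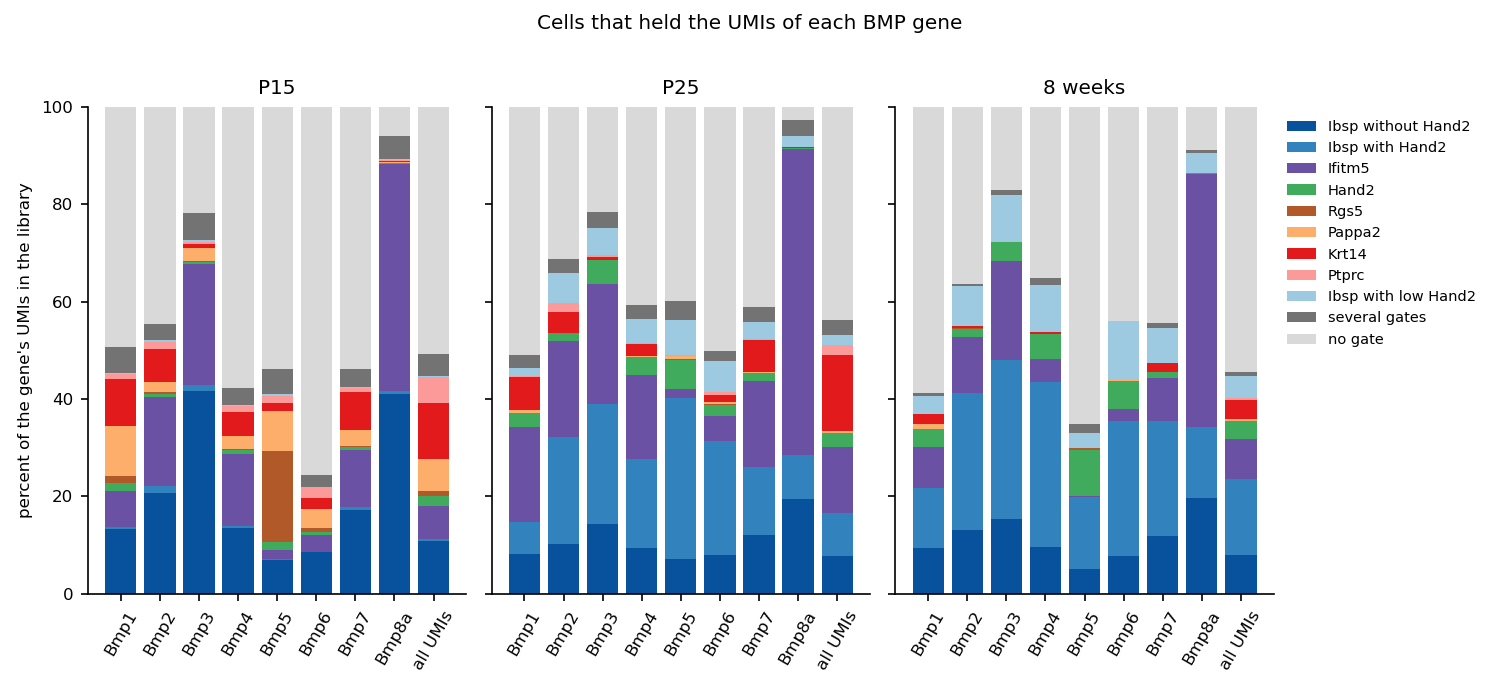
Stacked bars give the percent of each BMP gene's UMIs that lay in the cells of each gate, for the P15, P25 and 8 weeks libraries, with the share of all UMIs as the last bar. Between 88.4% and 93.6% of Bmp8a UMIs lay in Ibsp and Ifitm5 cells, and at P15 the Rgs5 gate held 18.7% of Bmp5 UMIs with 1.10% of all UMIs.

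Bmp8a, a ligand related to Bmp7, had the sharpest distribution. In the Ifitm5 gate the libraries gave, in the order P15, P25 and 8 weeks used from here on, levels of 103 CPM (97.5 to 109), 60.8 CPM (57.6 to 64.1) and 145 CPM (133 to 157). In the Ibsp gate without Hand2 it was 55.8, 33.8 and 55.4 CPM, and in the Ibsp gate with Hand2 16.7, 13.6 and 21.1 CPM. The order Ifitm5, Ibsp without Hand2, Ibsp with Hand2 was the same in each library, and no intervals of these gates met within a library. Every other gate lay at or below 1.52 CPM, with 6 Bmp8a UMIs in the Pappa2 gate at P15, none at P25, and 8, 5 and 0 UMIs in the Krt14 gate at P15, P25 and 8 weeks. Its neighbour and near copy Bmp8b, 180545 bases away on chromosome 4, stayed at or below 1.68 CPM in all gates. The longest coding transcript of Bmp8a shared 268 of its 2375 stretches of 31 bases with Bmp8b but 0 of the 470 stretches in its last 500 bases, the end that such libraries read.

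Bmp3 was high in all 3 mineralising gates. Its level was 592, 335 and 584 CPM at P15, P25 and 8 weeks in the Ibsp gate without Hand2, 377, 501 and 633 CPM in the Ibsp gate with Hand2, and 570.1, 323 and 758 CPM in the Ifitm5 gate. The leading gate differed by library: Ibsp without Hand2 at P15, Ibsp with Hand2 at P25 and Ifitm5 at 8 weeks. At P15 the intervals of the leading gate (581 to 602) and of the Ifitm5 gate (557 to 583) met, so these neighbours could not be ordered. The Hand2 gate was low at the earliest age, with 32.6 CPM (27.2 to 38.8), and later held 314 CPM (297 to 330.4) and 329 CPM (302 to 357). Krt14 cells held 10.5, 6.89 and 3.26 CPM of Bmp3, and Ptprc cells 10.7 and 21.2 CPM at P15 and P25. The intervals of these gates met at P15, and at P25 Krt14 cells were lower.

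Bmp2, a strong inducer of bone formation, was highest in the Ibsp gate with Hand2 in all libraries, at 276 CPM (242 to 312), 323 CPM (314 to 333) and 365 CPM (351 to 379). The Ifitm5 gate held 273, 188 and 287 CPM and the Ibsp gate without Hand2 held 189.9, 172 and 328 CPM. At P15 the intervals of the Ibsp gate with Hand2 and the Ifitm5 gate met, whereas at P25 and 8 weeks the leading gate stood clear of the next. With the TMM scaling that the tests used, the Ifitm5 gate led at P15, at 272 CPM against 259 CPM with Hand2. The Hand2 gate held 23.8, 79.0 and 94.2 CPM. Epithelial Krt14 cells held 58.5, 34.8 and 21.2 CPM, and the Rgs5 gate 37.4 CPM at P15.

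Bmp7, a ligand of epithelia and kidney as well as bone, varied little among the mineralising gates. It held 87.3, 97.9 and 96.2 CPM in the Ibsp gate without Hand2, 68.1, 96.7 and 98.7 CPM in the Ibsp gate with Hand2, and 98.0, 79.8 and 70.9 CPM in the Ifitm5 gate. The intervals of the Ibsp gates with and without Hand2 met in each library. Hand2 cells held 12.9, 37.9 and 22.7 CPM. Krt14 cells, with 36.6, 26.2 and 30.4 CPM, lay above the Hand2 gate at P15, with intervals that did not meet.

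Bmp4, which acts on tooth mesenchyme and epithelium from early tooth development, changed its leading gate with the library. The Ifitm5 gate led at P15 with 194 CPM (187 to 202) and held 70.4 CPM (66.9 to 73.9) and 43.6 CPM (37.2 to 50.8) in the later libraries. The Ibsp gate with Hand2 ran the other way, with 78.1 CPM (60.9 to 98.7), 116 CPM (111 to 122) and 163 CPM (154 to 173). The Ibsp gate without Hand2 held 109, 69.1 and 89.2 CPM and the Hand2 gate 29.6, 75.0 and 105 CPM. Bmp4 was also common in cells outside every gate, at 99.3, 52.3 and 48.3 CPM.

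**Figure D2:**
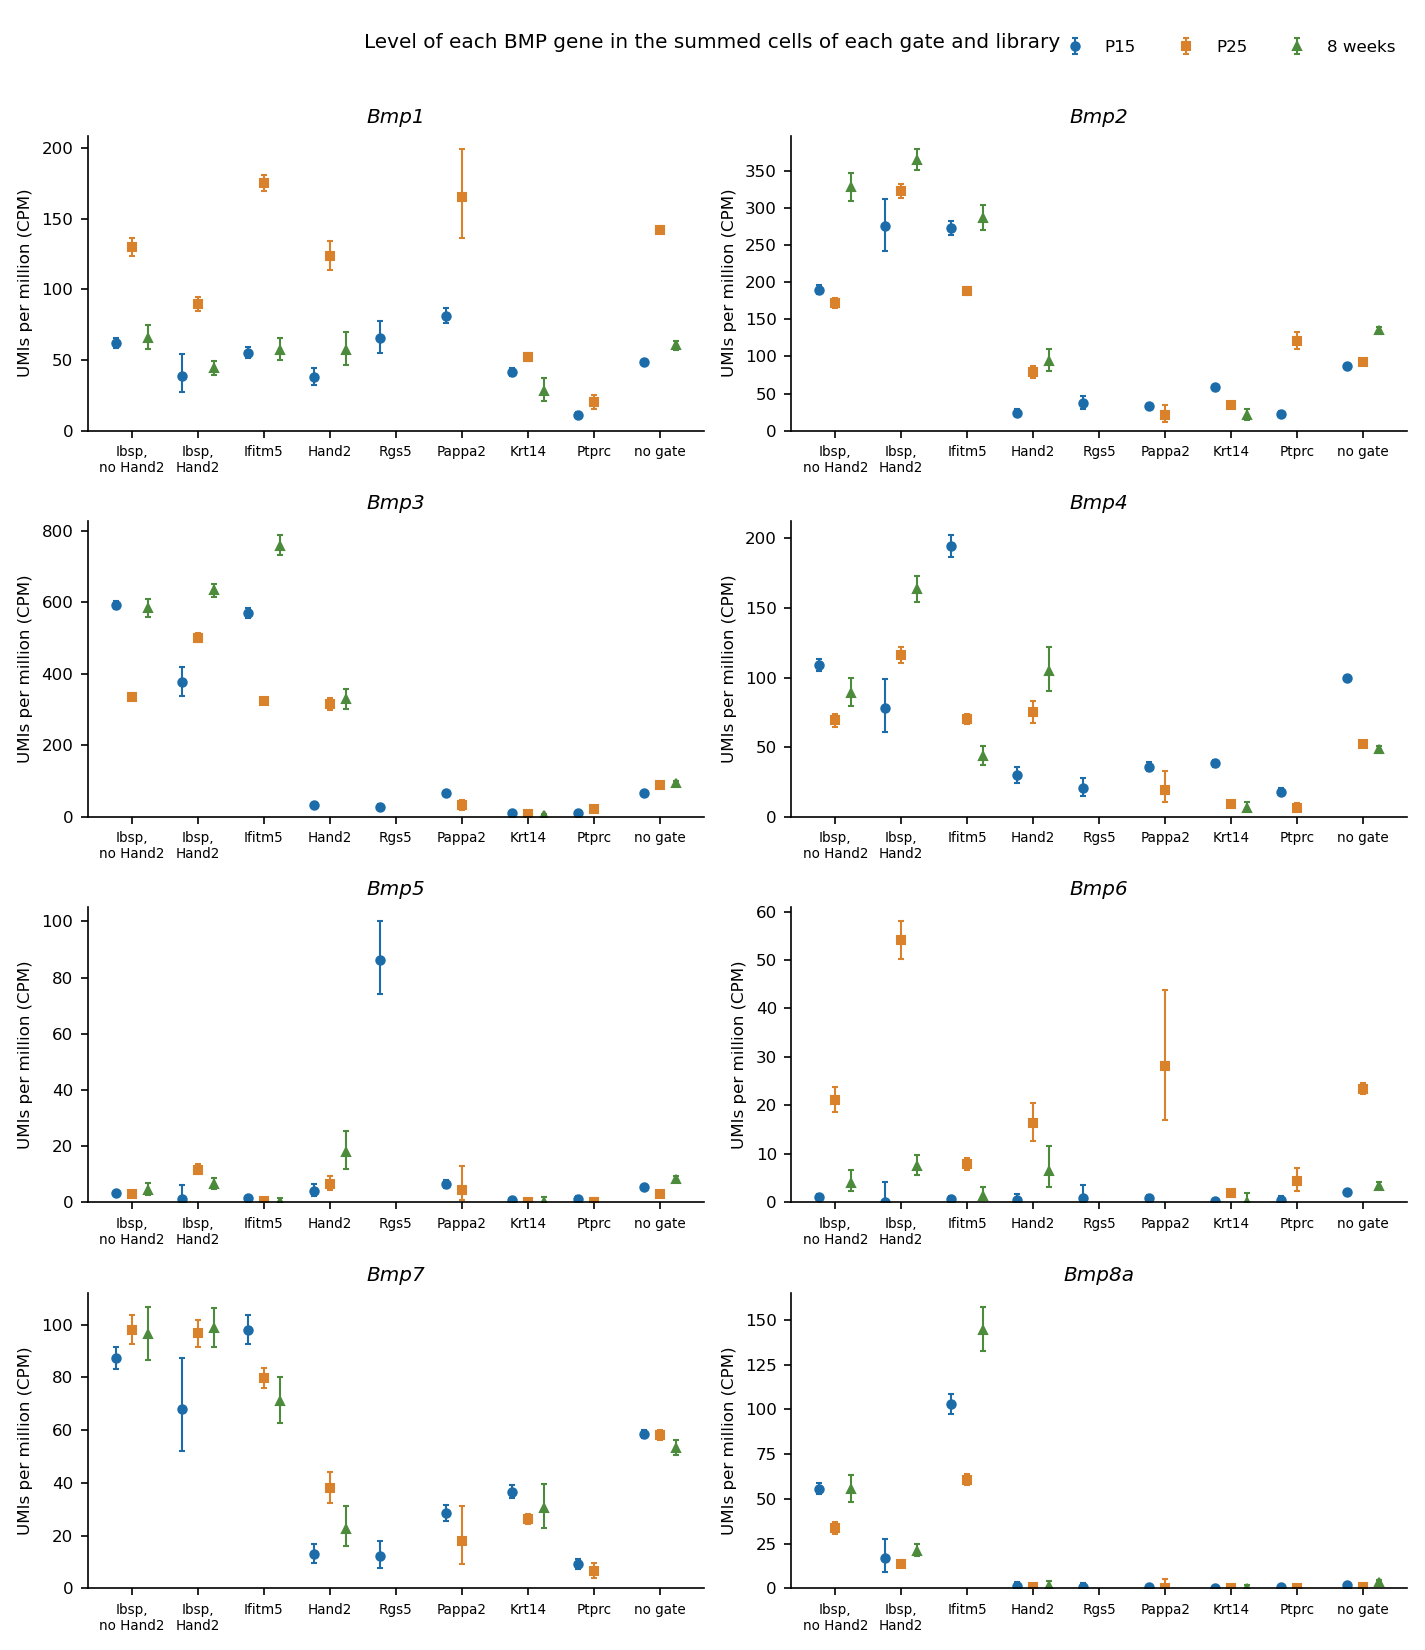
Each panel gives the level of a BMP gene (CPM, axis from 0) in the summed cells of each gate, with the P15, P25 and 8 weeks libraries as separate points and exact Poisson intervals at 95% as bars. Bmp8a was high in Ifitm5 and Ibsp cells alone, Bmp5 in Rgs5 cells at P15, and Bmp1 and Bmp6 were higher at P25 than at P15 in 7 of 7 gates.

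Bmp5 was the only member of the family whose level at P15 was highest in Rgs5 cells. The Rgs5 gate held 18.7% of the Bmp5 UMIs of that library, and cells outside every gate held 53.9%. In the 181 Rgs5 cells at P15 Bmp5 had 178 UMIs and 86.4 CPM (74.2 to 100.1). The other mesenchymal gates of that library held 1.12 to 6.41 CPM. The level was 13.5 times (10.3 to 17.9) that of Pappa2 cells, the next gate, and 60.1 times (36.9 to 104) that of Ifitm5 cells. The same cells were the lowest of the mesenchymal gates at P15 for Bmp3, Bmp4, Bmp7 and Bmp8a, at 27.2, 20.4, 12.1 and 0.485 CPM, with intervals that met those of the next gate. At the later ages, which had no Rgs5 value, Bmp5 was highest in the Ibsp gate with Hand2 at P25 (11.7 CPM, 9.98 to 13.6) and in the Hand2 gate at 8 weeks (17.9 CPM, 12.1 to 25.5). Summed markers of mural cells reached 3231 CPM in the Rgs5 gate and at most 293 CPM in the other gates at P15, and the endothelial markers reached 12.6 CPM there. The summed markers of Ibsp cells stood at 2532 CPM in the Rgs5 gate, against 2844 CPM in the Ibsp gate without Hand2. Timp3, at 1193 CPM, and Sparcl1, at 1132 CPM, made up most of the sum in Rgs5 cells. In the Ibsp gates these genes reached at most 1122 and 638 CPM at P15. The part of these markers in the Bmp5 level was not tested.

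Bmp6 and Bmp1 were higher in the P25 library than in the P15 library in each gate, and also varied between gates. Bmp6 held at most 1.08 CPM in any gate of the P15 library, between 1.91 and 54.0 CPM in those of P25, and at most 7.51 CPM in the oldest. The Ibsp gate with Hand2 led at P25 (54.0 CPM, 50.3 to 58.0) and at 8 weeks (7.51 CPM, 5.64 to 9.80), and held 0 UMIs at P15, which allows up to 3.35 CPM at 3 counts. At 8 weeks its interval met that of the Hand2 gate (6.56 CPM, 3.27 to 11.7), so these neighbours could not be ordered. Bmp1 held 81.4 and 166 CPM in Pappa2 cells at P15 and P25, 55.3, 176 and 57.1 CPM in Ifitm5 cells, and 39.1, 89.6 and 44.3 CPM in Ibsp cells with Hand2. Both genes were higher at P25 than at P15 in 7 of 7 gates with a value at both ages, by 1.26 to 3.26 times for Bmp1 and from 6.92 times for Bmp6, and Bmp1 was lower at 8 weeks than at P25 in 5 of 5 gates. In the cells without a gate the P25 levels were 2.92 times (2.82 to 3.02) those at P15 for Bmp1 and 11.4 times (9.83 to 13.3) for Bmp6. The differing software header and gene list of the P25 library move with these differences, and their part was not tested.

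Differences between gates were tested on UMIs summed per library and gate, with the library as the unit, and adjusted over 14293 genes. The mineralising gates were compared first. Between Ibsp cells without Hand2 and Ifitm5 cells, none of the 8 genes passed an adjusted p of 0.05 (80 genes, or 0.56% of all tested, did), and 2 passed an unadjusted p of 0.05. Bmp8a was 1.85 times (1.71 to 2.004), 1.80 times (1.61 to 2.02) and 2.61 times (2.22 to 3.08) higher in Ifitm5 cells at P15, P25 and 8 weeks. Its fitted log2 difference was -1.27 ± 0.32 (SE, 3 sums in each gate) with an adjusted p of 0.0972 by edgeR. With the library as a block the adjusted p was 0.00753, and over the alternatives it ran from 0.00753 to 0.809. The other gene past the unadjusted threshold was Bmp5, at few counts: it was 2.29, 7.13 and 16.3 times higher in Ibsp cells without Hand2, on 18, 9 and 1 UMIs in Ifitm5 cells (log2 difference 2.003 ± 0.81, adjusted p 0.417). For Bmp2, Bmp3, Bmp4 and Bmp7 the fitted differences lay between -0.36 and -0.01, with 95% intervals as wide as -1.72 to 1.01 for Bmp4.

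Ibsp cells with Hand2 were set against Ibsp cells without it, which are cells with no Hand2 UMI. The latter still held 766, 1482 and 1963 CPM of the summed markers of Hand2 cells, against 3753, 4552 and 5277 CPM with Hand2. Median depth was 14786, 14144 and 8438 UMIs without Hand2 and 16933, 14761 and 10125 UMIs with it. The part of these markers and of depth in the differences was not tested. None of the 8 genes passed the adjusted threshold, against 0.441% of all genes, and 1 passed the unadjusted threshold. That gene was Bmp8a, which was lower with Hand2 at each age, at 0.300 times (0.167 to 0.497), 0.402 times (0.338 to 0.478) and 0.381 times (0.307 to 0.473) the level without. The log2 difference was -1.52 ± 0.34 with an adjusted p of 0.0610, and 0.00348 with the library as a block. DESeq2, doubled UMI minima and removal of likely doublets also brought it under the threshold, and the adjusted p over the alternatives ran from 0.00348 to 0.540. Bmp2 was higher with Hand2 at each age, by 1.45 times (1.27 to 1.65), 1.88 times (1.79 to 1.98) and 1.11 times (1.04 to 1.19), and its log2 difference of 0.47 ± 0.50 had an adjusted p of 0.896. Bmp1 was lower with Hand2 at each age, at 0.631, 0.689 and 0.672 times, with an adjusted p of 0.878. The Ibsp gate with Hand2 rested on 47 cells at P15.

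Ibsp cells with Hand2 were next set against Hand2 cells with Ibsp under its minimum. Bmp8a and Bmp7 passed the test, 2 of 8 genes against 0.749% of all genes (60 higher and 47 lower), and both were higher with Ibsp. Bmp8a was 11.03, 15.2 and 17.7 times higher at P15, P25 and 8 weeks, on 6, 4 and 2 UMIs in the Hand2 gate, with a log2 difference of 3.84 ± 0.46 and an adjusted p of 0.000842. Bmp7 was 5.28 times (3.58 to 7.81), 2.55 times (2.17 to 3.005) and 4.36 times (3.14 to 6.21) higher, with a log2 difference of 1.86 ± 0.32 and an adjusted p of 0.0107. Bmp2 was 11.6, 4.09 and 3.87 times higher, with a log2 difference of 2.33 ± 0.54, an adjusted p of 0.0629, and 0.0374 with the library as a block (0.000826 to 0.435 over the alternatives). The 3 genes were higher with Ibsp in each library. Bmp3 was 11.6 times higher at P15 and 1.60 and 1.93 times higher at P25 and 8 weeks, and did not pass (adjusted p 0.604). Without the 8 weeks library no member passed, with adjusted p-values of 0.0589 for Bmp8a and 0.356 for Bmp7, and without the P15 library Bmp2 did, at 0.0373. Doubled UMI minima took Bmp7 to 0.0888.

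**Figure D3:**
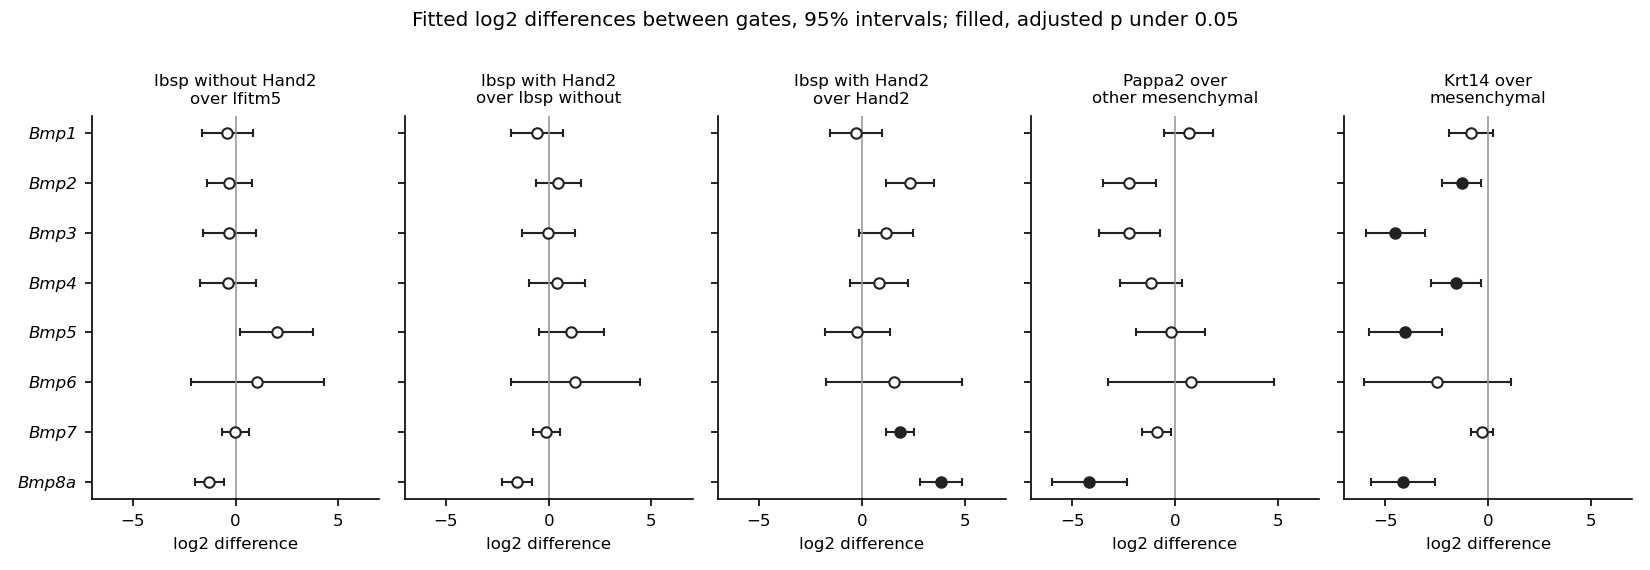
Fitted log2 differences of the 8 BMP genes in 5 comparisons of gates, from edgeR. Bars are 95% intervals computed from the standard errors with 12 residual degrees of freedom. Filled points passed an adjusted p of 0.05 over all genes in the edgeR test, which did not use these intervals. Bmp8a and Bmp7 passed, above 0, in Ibsp cells with Hand2 against Hand2 cells. The Bmp2 interval there (1.17 to 3.50) also lay above 0, and Bmp2 did not pass. In Krt14 cells Bmp2, Bmp3, Bmp4, Bmp5 and Bmp8a passed, below 0.

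The Rgs5 gate had 1 sum and was given no test. Fitted against the mean of the other mesenchymal gates over all libraries, Bmp5 had a log2 difference of 4.24 in Rgs5 cells. The other genes lay below 0, at -4.30 for Bmp8a, -3.53 for Bmp3, -3.41 for Bmp6, -2.32 for Bmp7, -2.04 for Bmp4, -1.96 for Bmp2 and -0.58 for Bmp1. None of these values has a check between libraries. For Bmp6 and Bmp1 the fit sets a P15 gate against means that hold P25. With the library as a block the difference was -0.41 for Bmp6 and under 0.01 in size for Bmp1, and it was 4.13 for Bmp5.

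Pappa2 cells were low in Bmp8a, Bmp2 and Bmp3 against the mean of the other mesenchymal gates. That mean includes the Ibsp and Ifitm5 gates, where these genes were highest. At P15 Hand2 cells held less Bmp3 and Bmp2 than Pappa2 cells, at 32.6 and 23.8 CPM. Rgs5 cells held 27.2 and 37.4 CPM. At P25 Hand2 cells held more, at 314 and 79.0 CPM. Bmp8a at P15 was 0.499 CPM in Pappa2, 0.485 CPM in Rgs5 and 1.52 CPM in Hand2 cells, with intervals that met. Bmp8a passed the test, 1 of 8 genes against 1.49% of all genes (35 lower and 178 higher). Its log2 difference was -4.16 ± 0.84 with an adjusted p of 0.0196, on 6 UMIs at P15 and 0 at P25. The call was lost without the P15 library (adjusted p 0.105), without P25 (0.115) and without 8 weeks (0.0587), with doubled UMI minima (0.112) and with minima scaled to depth (0.140), and the adjusted p over the alternatives ran from 2.71e-05 to 0.140. Bmp2 held 33.2 and 20.7 CPM and Bmp3 66.3 and 31.1 CPM in Pappa2 cells. Their log2 differences were -2.23 ± 0.59 (adjusted p 0.0868) and -2.23 ± 0.68 (adjusted p 0.147), and both passed without the P15 library, at 0.0178 and 0.0200. In the same setting Bmp7 passed at 0.0314. The Pappa2 gate had only 2 sums, and 1 without P15 (35 cells), without P25 or with either change of the minima. In those settings the lone sum is assumed to vary as the other gates do.

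Epithelial Krt14 cells held less of 5 BMP genes than the mean of the 6 mesenchymal gates. The count of 5 in 8 stands beside 51.6% of all genes tested. That share counts both directions, with 3290 of 14293 genes lower and 4086 higher. Bmp3 fell by 4.51 on the log2 scale (SE 0.65, adjusted p 4.44e-05), Bmp8a by 4.13 (SE 0.72, adjusted p 0.000198) and Bmp5 by 4.02 (SE 0.82, adjusted p 0.000758). Bmp2 fell by 1.29 (SE 0.44, adjusted p 0.0235) and Bmp4 by 1.55 (SE 0.56, adjusted p 0.0314). Not every mesenchymal gate was higher. At P15 Krt14 cells held more Bmp2 (58.5 CPM) than Rgs5, Pappa2 and Hand2 cells (37.4, 33.2 and 23.8 CPM). Bmp4 at P15 was 38.3 CPM in Krt14 cells and 36.0, 29.6 and 20.4 CPM in Pappa2, Hand2 and Rgs5 cells. The Krt14 and Pappa2 intervals met. At P25 and 8 weeks Krt14 cells held 9.12 and 5.97 CPM of Bmp4, below every mesenchymal gate. Bmp8a at P15 was 0.368 CPM in Krt14 cells. Rgs5, Pappa2 and Hand2 cells held 0.485, 0.499 and 1.52 CPM of it, with intervals that met that of Krt14 cells. The mean for Bmp8a was thus raised by the Ibsp and Ifitm5 gates. Bmp7 had a log2 difference of -0.29 ± 0.25 (95% interval -0.83 to 0.25, adjusted p 0.358), the smallest among the 8. With the library as a block Bmp1 and Bmp6 passed as well, at 0.00309 and 0.000953 against 0.164 and 0.227 without it. The Bmp2 call was lost without P25 (0.0888) or 8 weeks (0.215), the Bmp4 call without P25 (0.213), 8 weeks (0.158) or likely doublets (0.0623), and the Bmp8a call without P15 (1.00), where Krt14 cells held 5 and 0 UMIs. Bmp1 passed without P25 (0.0364) and Bmp7 without P15 (0.00869).

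Levels were then read along the Ibsp count of the cell, over cells outside the Krt14, Ptprc, Rgs5 and Pappa2 gates and with Ifitm5 cells included. Bmp3 was higher at each step, where cells with no Ibsp UMI, with 1 to 9, with 10 to 99 and with 100 or more held 49.0, 78.2, 349.9 and 788 CPM at P15. At P25 the values were 91.4, 121, 287 and 483 CPM, and at 8 weeks 74.9, 136, 469 and 822 CPM. For Bmp8a the same classes gave 2.37, 3.79, 9.32 and 110.03 CPM in the youngest library. In the P25 library they gave 1.79, 5.13, 19.0 and 50.2 CPM, and in the oldest 4.08, 6.92, 24.3 and 79.6 CPM. The steepest step of Bmp8a at P15 was the last, whereas Bmp3 was already raised in cells with 10 to 99 Ibsp UMIs. Ifitm5 cells of any Ibsp count held 1290 Bmp8a UMIs at P15, and cells with 100 or more Ibsp UMIs held 2193. The part of Ifitm5 cells in these steps was not tested. Bmp2 differed little among the lower classes at P15 (86.2, 88.1 and 80.7 CPM) and stood at 308 CPM in the highest. Bmp5 went down along the classes at P15, from 5.46 to 1.66 CPM, and at 8 weeks, from 9.77 to 3.803 CPM, but not at P25 (3.06 to 5.28 CPM). Median depth per cell also differed between the classes, from 12267 to 15370 UMIs at P15, 13794 to 16701 at P25 and 6841 to 9650 at 8 weeks, and its part was not tested.

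**Figure D4:**
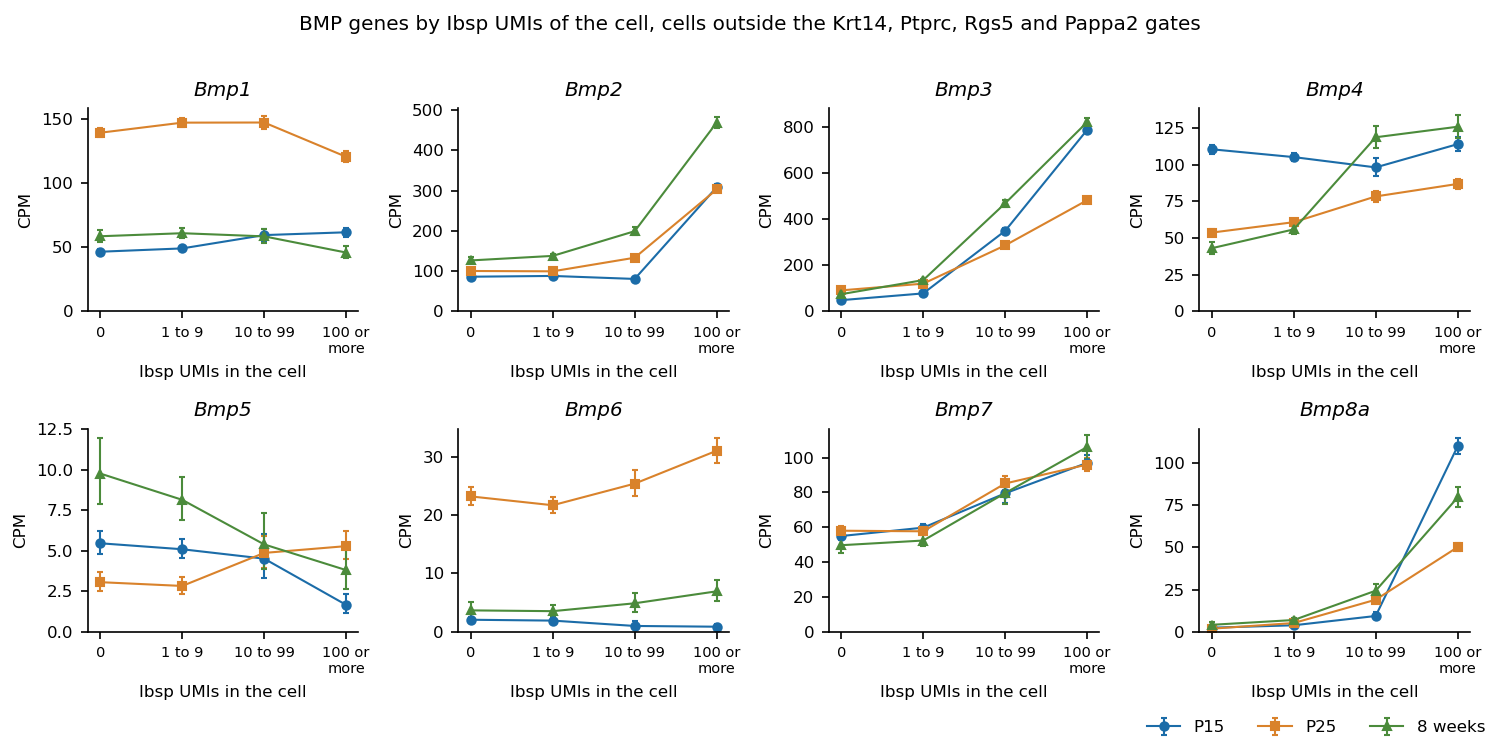
Level of each BMP gene (CPM, axis from 0) in cells with 0, 1 to 9, 10 to 99 and 100 or more Ibsp UMIs, with exact Poisson intervals at 95%, by library. Bmp3 and Bmp8a were higher in each further class in all libraries, and Bmp2 stood highest in the last class. The classes include Ifitm5 cells.

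Shares of cells with a UMI were taken after thinning each cell to 3000 UMIs, which left out 1761, 735 and 959 shallower cells at P15, P25 and 8 weeks. Bmp3 was found in 66.8% (64.1 to 69.4, exact binomial interval), 57.1% and 69.8% of Ibsp cells without Hand2, 66.0%, 69.9% and 81.7% of those with Hand2 and 64.6%, 55.7% and 79.9% of Ifitm5 cells, and before thinning in 84.0% to 98.5% of these cells. Ptprc cells, blood cells that serve as the background, gave 3.69% at P15 and 2.02% at P25 (9.46% and 10.6% before thinning). Krt14 cells gave 2.05%, 2.72% and 1.06%. Their values at P15 and P25 lay in the range of that background, which had no value at 8 weeks. The background was not even over cells, since single Ptprc cells held up to 13 Bmp3 UMIs at P15 and 19 at P25. Single Krt14 cells held up to 38 and 33 in the same libraries. Median depth before thinning was 14786 UMIs in Ibsp cells without Hand2 and 10477 in Ptprc cells at P15.

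Bmp8a was found in 27.5% (24.1 to 31.2), 15.3% (12.9 to 18.0) and 32.7% (27.1 to 38.7) of Ifitm5 cells, and in 65.8%, 53.6% and 58.8% before thinning. Ibsp cells without Hand2 gave 13.3%, 8.87% and 12.0%, and those with Hand2 gave 0 of 47, 3.53% and 5.80%. A count of 0 of 47 allows up to 6.38% of cells with a UMI at the thinned depth, and before thinning 8.51% of the same gate had 1 or more. Ptprc cells gave 0.137% at P15 and 0 of 198 at P25, which allows up to 1.52% of cells with a UMI at the thinned depth and sets no limit on cells that express the gene. Bmp5 was found in 20.7% (14.9 to 27.5) of Rgs5 cells at P15, against 0.274% of Ptprc cells and 1.90% of cells without a gate.

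**Figure D5:**
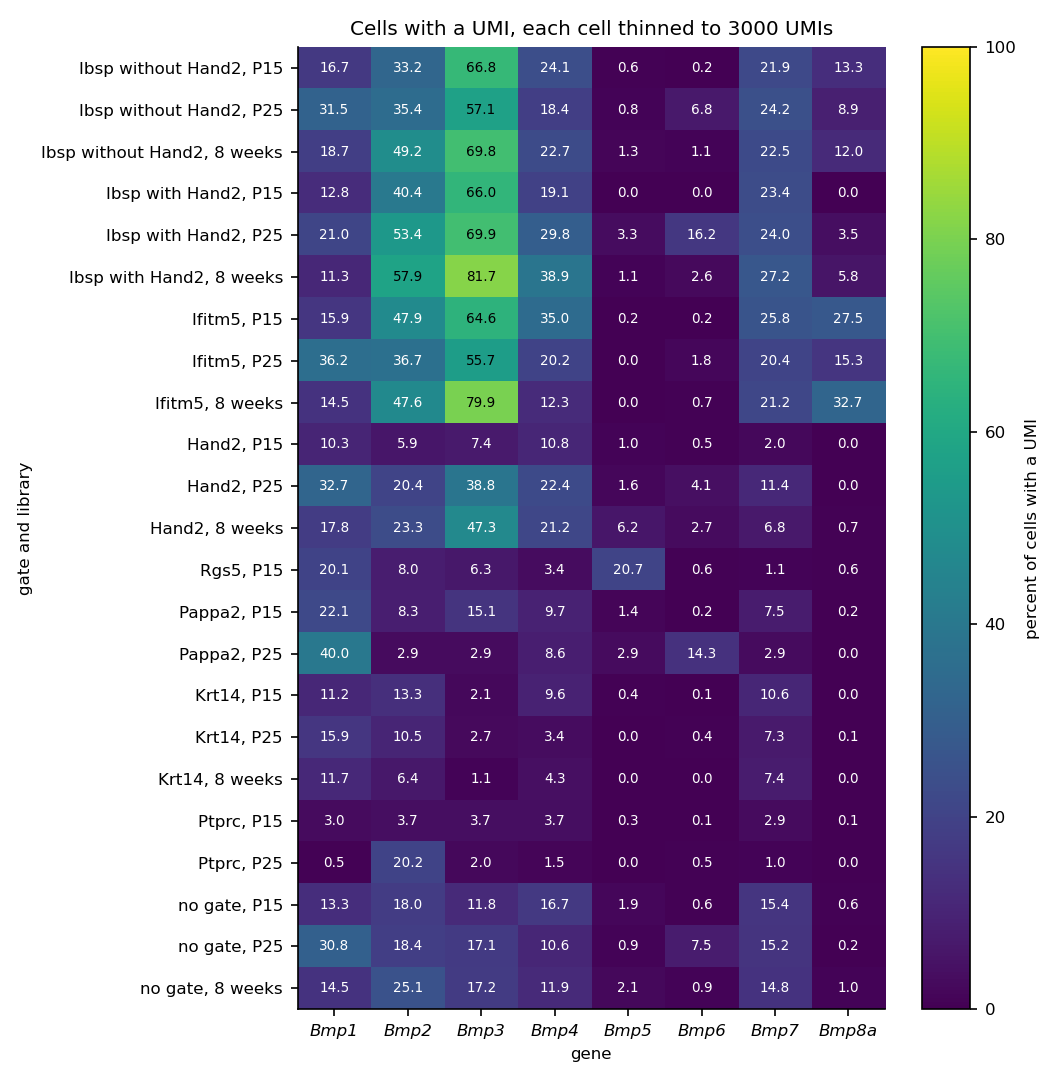
Percent of cells with a UMI of each BMP gene after thinning to 3000 UMIs per cell, by gate and library, written in each field and shown by colour. Ptprc cells held Bmp2 in 3.69% of cells at P15 and 20.2% at P25.

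Ptprc cells at P25 stood apart from Ptprc cells at P15 in Bmp2. The share was 20.2% (14.8 to 26.5), against 3.69% (2.45 to 5.33) at P15, and before thinning 42.2% against 9.08%. The 199 cells held 417 Bmp2 UMIs and 121 CPM (109.7 to 133), against 22.9 CPM (20.03 to 26.0) at P15. In these cells 22 had 5 or more Bmp2 UMIs and the highest had 42, while no cell had more than 3 Ibsp UMIs. The gate left out cells with 10 or more Ibsp UMIs. Markers of the gate also differed between P15 and P25: Cd52 held 1579 and 405 CPM, Coro1a 751 and 251, and Tyrobp 2351 and 1690. Laptm5 held 611 and 1306 CPM and Fcer1g 1677 and 1887. The part of the mix of blood cells in the Bmp2 difference was not tested. The ratio of Bmp2 to Bmp3 UMIs was 5.71 there, and in the same library 5.05 in the Krt14 gate, 0.513 in the Ibsp gate without Hand2 and 1.04 in cells without a gate. Gdf15, a distant member of the family known from stressed cells and macrophages, stood at 301 CPM in the same cells and at most 2.43 CPM in the other classes at P25. No Ptprc value was available at 8 weeks, where 19 cells passed the gate.

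Several ligands were found together in mineralising cells. Counting Bmp2 to Bmp8a without Bmp1, thinned cells held UMIs of 1.60, 1.52 and 1.79 of the 7 genes on average in the Ibsp gate without Hand2, 1.49, 2 and 2.15 with Hand2 and 2.01, 1.502 and 1.94 in the Ifitm5 gate, against 0.276, 0.988 and 1.08 in Hand2 cells and 0.361, 0.245 and 0.191 in Krt14 cells. At least 2 of the genes were found in 44.7% to 72.8% of thinned mineralising cells. Within Ibsp cells without Hand2 at P15, Bmp8a was found in 18.2% of the 841 cells with a Bmp3 UMI and 3.35% of the 418 without. In Ifitm5 cells of that library the shares were 36.0% and 12.2%. At P25 they were 14.2% and 1.85% in Ibsp cells without Hand2 and 21.1% and 8.01% in Ifitm5 cells. In Ibsp cells with Hand2 they were close at P25, at 3.75% and 3.02%. The 8 weeks shares were 13.8% and 7.96% without Hand2, 6.54% and 2.50% with Hand2 and 37.2% and 14.8% in Ifitm5 cells. Both genes were also higher at higher Ibsp counts, and the part of these counts was not tested. Bmp4 in Ifitm5 cells had no single direction, found at P15 in 30.5% of cells with Bmp3 and 43.2% of cells without, at P25 in 21.8% and 18.2%, and at 8 weeks in 13.5% and 7.41%. Cells of a gate share a library and were not used as replicates.

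Across ages the gates moved differently, with values of single libraries and no test. Bmp3 in Hand2 cells was 9.61 times (8.02 to 11.6) higher at P25 and 10.1 times (8.30 to 12.3) higher at 8 weeks than at P15, and Bmp2 was 3.32 and 3.96 times higher. In the Hand2 gate the summed markers of Ibsp cells went from 558 CPM at P15 to 809 and 1617 CPM, and those of Hand2 cells from 3861 to 7009 and 8648 CPM. Those of Ifitm5 cells stood at 77.4, 534 and 152 CPM in the same gate. Dspp, the odontoblast marker, stood there at 32.4 CPM at P25 and at 0 CPM at P15 and 8 weeks. The part of these markers in the differences was not tested. Bmp4 in Ifitm5 cells went the other way, to 0.362 times (0.339 to 0.386) the P15 level at P25 and 0.224 times (0.190 to 0.263) at 8 weeks. In Ifitm5 cells Dspp stood at 30.6 and 33.9 CPM at P15 and P25 and at 0 UMIs at 8 weeks. Bmp8a in Ifitm5 cells was 0.590 times (0.546 to 0.637) the P15 level at P25 and 1.40 times (1.27 to 1.55) at 8 weeks. Bmp7 in Ibsp cells without Hand2 stayed within 1.10 to 1.12 times its P15 level.

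Likeness of pattern was measured as Pearson's r of log2(CPM + 1) over the 20 sums of gate and library, among 11780 genes, and is a description in which sums share libraries and cell types. The genes most like Bmp8a were Pla2g5 (0.978), Ank (0.974) and Sgms2 (0.960), a phospholipase, a pyrophosphate transporter and a sphingomyelin synthase. Bmp3 was most like Lamc3 (0.967), Cacna2d3 (0.956) and Fgfr1 (0.953), and Bmp4 most like Hes6 (0.933), Focad (0.932) and Nkd1 (0.930). Bmp2 was most like Fgf9 (0.903), Ccser1 (0.901) and Enpp1 (0.898). Bmp7 was most like Pthlh (0.920), the reporter transcript mCherry_trans (0.913) and Map6 (0.912), so that it followed the gene on which the cells were sorted. Bmp5 was most like Trpc6 (0.928), Csnk1e (0.916) and Pde3a (0.890), Bmp1 most like Bsg (0.891), Erp44 (0.871) and Btg3 (0.868), and Bmp6 most like 4833420G17Rik (0.886), Ggps1 (0.884) and Dbndd2 (0.871). Bmp5 stood at 86.4 CPM in the lone Rgs5 sum and at most 17.9 CPM in the others, so its r leans on 1 sum. Bmp6 held at most 1.08 CPM in P15 gates and 1.91 to 54.0 CPM in P25 gates. The part of the P25 library and its differing file in the r of Bmp6 was not tested. Among the members, Bmp3 and Bmp4 (0.889), Bmp2 and Bmp3 (0.860) and Bmp2 and Bmp8a (0.839) lay closest, while Bmp5 and Bmp8a had an r of -0.14.

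Other genes of the pathway were read from 7 lists of ligands, receptors, antagonists, signal transducers, response genes, tolloid partners and proprotein convertases. No gene of these lists passed between Ibsp cells without Hand2 and Ifitm5 cells or between Ibsp cells with and without Hand2. The nearest was Bambi, a decoy receptor that binds without signalling, at 670.4, 757 and 593 CPM in Ifitm5 cells and 143, 175 and 185 CPM in Ibsp cells without Hand2 (log2 difference -2.21 ± 0.48, adjusted p 0.0528). Against Hand2 cells, where 0.749% of all genes passed, 1 of 11 response genes was lower in Ibsp cells with Hand2, Atoh8 (log2 difference -2.09 ± 0.45, adjusted p 0.0418). In Pappa2 cells, where 1.49% of all genes passed, 1 of 7 further ligands rose, Gdf10 (log2 difference 4.62 ± 0.66, adjusted p 0.00283), a relative of Bmp3, at 10.985 CPM at P15 and 60.7 CPM at P25.

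In Krt14 cells 51.6% of all genes passed, with 3290 lower and 4086 higher. Beside these, 3 antagonists were higher and 8 lower of 17, and 1 receptor was higher and 4 lower of 9. Of 11 response genes 7 were lower, with none higher. Fst, the activin and BMP binding protein follistatin, was 3.09 ± 0.54 higher on the log2 scale (adjusted p 0.000213), and Rgma, a co-receptor, 2.08 ± 0.33 higher (adjusted p 9.23e-05). Chrd, the antagonist chordin that Bmp1 cleaves, fell by 3.07 (SE 0.41, adjusted p 1.64e-05), and the response genes Msx1 and Id3 fell by 3.77 (adjusted p 2.65e-06) and 1.89 (adjusted p 6.52e-06). Of 4 signal transducers Smad1 was higher (0.52 ± 0.15, adjusted p 0.00803) and 2 were lower, and 2 of 7 further ligands, 2 of 4 convertases and 1 of 3 tolloid partners were lower.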

How the data were processed

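Per the file headers and the deposited processing notes, the authors aligned the reads to mm10 with Cell Ranger (6.1.2 in the notes and in the P15 and 8 weeks headers, 6.0.1 in the P25 header) and deposited filtered matrices of whole-number UMI counts per gene and cell, 1 for each library. Those counts were joined by gene identifier over 21446 genes, and 0.189% to 4.80% of a library's UMIs lay outside them. No cell was removed for quality. Cells that passed the gates of several lineages, and Ibsp cells with 1 Hand2 UMI, were left out of the gates.

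UMIs were summed per library and gate with at least 20 cells (20 sums), and tested with edgeR 4.0.16 (quasi-likelihood, robust, TMM, filterByExpr) on gate alone, in R 4.3.3, with Benjamini-Hochberg adjustment over 14293 genes. The unit is the library, the spread between libraries includes age, and p-values measure only the spread between these samples. Tested on simulated data for Ibsp cells without Hand2 against Ifitm5 cells, edgeR recovered 53% of 100 genes changed 2-fold and 100% of 100 changed 4-fold among 14293. The simulated spread was smaller than the common dispersion of 0.116 fitted to the data. Other genes had equal means in all gates, there was no library or age effect, and only genes above 10 CPM were changed. The recovered shares therefore do not give the power of the test in the data. Alternatives were DESeq2 1.42.0, size factors, filters, UMI minima, Scrublet (scanpy 1.11.5), leaving out a library, and the library as a block. Gates of a library come from the same pooled animals, so the library pairs them, and their deviations from gate means correlated with a median r of 0.380, 0.586 and 0.368 at P15, P25 and 8 weeks (lowest 0.0893 of 10 gate pairs each).

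The BMP genes, gates and gene lists were chosen with earlier results of these data known. All 8 genes are named, with the 3 genes of highest r for each among those with at least 10 CPM in a sum, and from the pathway lists those of smallest adjusted p.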

Additional observations from a re-analysis of the deposited data

Results flagged for a closer look

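In 4 cases a gene was at least 25% higher in the first gate in 1 library and at least 25% higher in the second gate in another, each with a counting interval that excluded a ratio of 1. Each age has 1 library, so the difference between ages was not tested. Bmp4 in Ibsp cells without Hand2 was 0.560 times its level in Ifitm5 cells at P15, 0.983 times at P25 and 2.05 times at 8 weeks. Between Ibsp cells with and without Hand2, Bmp3 was 0.637 times as high with Hand2 at P15, 1.49 times at P25 and 1.08 times at 8 weeks, and Bmp4 was 0.717, 1.68 and 1.83 times as high. In both cases the P15 value with Hand2 rested on 47 cells. Bmp5 in Ibsp cells with Hand2 was 0.276 times its level in Hand2 cells at P15, on 1 UMI and with an interval that held 1, 1.75 times at P25 and 0.365 times at 8 weeks. By smaller margins in at least 1 direction, CPM in Ibsp cells without Hand2 also lay on both sides of Ifitm5 cells for further genes. These were Bmp1 (1.12 at P15 and 0.741 at P25), Bmp2 (0.697 at P15 and 1.14 at 8 weeks), Bmp3 (1.04 at P15 and 0.770 at 8 weeks) and Bmp7 (0.891 at P15 and 1.23 at P25). These ratios are of CPM without TMM scaling. With it, Ibsp cells without Hand2 lay just below Ifitm5 cells for Bmp2 at 8 weeks (308 and 315 CPM). The same held for Bmp3 at P15 (561 and 568 CPM), and Bmp7 at P25 was nearly level (100.1 and 98.7 CPM). Scaled levels of Bmp4 at P25 were 70.7 and 87.1 CPM in these gates.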

How the results depend on the processing

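Of the 440 single-gene values under 11 alternatives, 395 kept their direction and side of the threshold, 18 newly passed, 14 no longer passed and 13 changed sign. Between Ibsp cells without Hand2 and Ifitm5 cells 0 BMP genes passed, 1 with DESeq2 and 1 with the library as a block. Between Ibsp cells with and without Hand2 0 passed, and 1 each with DESeq2, the block, doubled UMI minima and without likely doublets. Against Hand2 cells the 2 that passed became 1 with doubled minima, and 0 to 3 when a library was left out. In Pappa2 cells the 1 became 3 with DESeq2, 0 with doubled minima, 0 with minima per 10000 UMIs, and 0 to 3 when a library was left out, and in Krt14 cells the 5 became 7 with the block and 3 to 5 when a library was left out. The log2 difference of Bmp5 in Rgs5 cells was 4.57 without likely doublets, and could not be had without P15. The block changed no call beyond those given beside the results, and the cause of these changes was not tested.

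Counts over all genes moved as well, from 80, 63 and 107 in the first 3 comparisons to 245, 204 and 300 with DESeq2, 289, 196 and 259 with the block, and 2, 1 and 14 without P25, where Pappa2 went from 213 to 3 and Krt14 from 7376 to 4718. Without 8 weeks they were 8, 2, 9 and, for Pappa2, 83, and without P15 the first was 154. Doubled minima gave 117, 49 and 110 for the Hand2 comparisons and Pappa2, minima per 10000 UMIs gave 227 and 229 for the Hand2 comparisons, and leaving out likely doublets gave 121 and 127 for the first and second.

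Signs changed for the following. Against Ifitm5 cells, the log2 value of Bmp7 became 0.024 with doubled minima and 0.0062 without likely doublets, and ran from -0.10 to 0.11 when a library was left out, as Bmp1 ran from -0.52 to 0.032 and Bmp4 from -0.68 to 0.18. With against without Hand2, Bmp3 became 0.13 with minima per 10000 UMIs and ran from -0.24 to 0.29, and against Hand2 cells Bmp5 ran from -0.996 to 0.60. In Pappa2 cells, Bmp5 became 0.024 without likely doublets and ran from -0.11 to 0.26, and Bmp6 became -3.33 with doubled minima and -3.78 with minima per 10000 UMIs and ran from -1.19 to 1.02. Depth limits Bmp5, Bmp6 and Bmp8a outside the gates where they are high, where sums often held fewer than 10 UMIs.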
